A study of Mus musculus with 24 samples.

Results

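The urea cycle and the zonated enzymes and carriers of ammonia and glutamine were followed in mouse liver as 9 named genes. Cps1, Otc, Ass1, Asl and Gls2 stand for the periportal side of the lobule, and Glul, Oat, Slc1a2 and Rhbg for its pericentral side. The genes were chosen by name for their place in the pathway, and all 9 were found among the 21755 genes of the p16-3MR table. In the wild-type table only Oat and Slc1a2, 2 of the 9, could be read among 12643 labels. Its labels lack 9 lower-case letters, so that the labels of the other 7 could stand for 2 or more genes each. Glul, for example, shares its shortened label with Gulo and Gusb, and Asl shares its label with Alb. The values under those 7 labels were not used here.

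RNA was measured by Smart-3SEQ, which reads the 3′ ends of transcripts, in 24 livers of male and female mice with 3 livers in each of 8 groups. The p16-3MR mice carry a transgene in which p16 sequences drive a reporter together with the thymidine kinase of herpes simplex virus, so that the prodrug ganciclovir (GCV) can kill cells with an active p16 locus, and all 12 of them, controls included, carry it. Injections into the abdomen, of GCV or of pH11 water as vehicle (VEH), were given to them on 5 days of each month, starting at 16 to 18 months of age, and the methods place liver collection at about 28 months. The GCV dose is 150 mg/kg in the labels and 25 mg/kg in the methods. The 12 wild-type mice lack the transgene, began monthly VEH or GCV at 6 months of age and gave their livers 3 months later, although the labels also call them matched in age to the p16-3MR mice. The p16-3MR livers are batch 1 and the wild-type livers batch 2, so genotype, batch and any difference in age cannot be told apart and no test was made between the tables. Libraries held 5005760 to 7160172 counts in p16-3MR livers and 3084517 to 5667904 in wild-type livers. Levels are given as counts per 1000000 after edgeR's TMM scaling (CPM), and they are compared between livers, not between genes.

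The urea cycle turns toxic ammonia into urea. Cps1 captures ammonia as carbamoyl phosphate in the mitochondria, Otc joins it to ornithine, and Ass1 and Asl build and split argininosuccinate. Gls2, the liver glutaminase, frees ammonia from glutamine beside this cycle in periportal hepatocytes. Around the central vein a thin layer of hepatocytes takes up what ammonia is left through Rhbg, an ammonium carrier, and glutamate through Slc1a2, and joins the pair into glutamine through Glul, while Oat passes ornithine nitrogen on to glutamate. This arrangement is known as metabolic zonation, and beta-catenin signalling is known to sustain its pericentral side. In bulk liver, fewer cells of a type and less RNA per cell cannot be told apart.

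RefSeq promoters (GRCm38.p6, 250 bases before to 50 after the start site) were at hand for 5 of the 9 genes. They were searched on both strands for ATCAAAG, the TCF/LEF site used by beta-catenin, for TGACG, the core of the cAMP response element, for TTGCNNAA of C/EBP factors and for CAAAGTCCA of HNF4A. The letters of these motifs overlap in no match found. The windows are shown for Otc and Ass1, whose levels varied together most closely of all pairs of these genes, and for Oat and Slc1a2, which were measured in both tables. Each is written 5′ to 3′ on its gene's strand, and capitals mark a motif match.
Otc, chrX:10252055-10252354, plus strand: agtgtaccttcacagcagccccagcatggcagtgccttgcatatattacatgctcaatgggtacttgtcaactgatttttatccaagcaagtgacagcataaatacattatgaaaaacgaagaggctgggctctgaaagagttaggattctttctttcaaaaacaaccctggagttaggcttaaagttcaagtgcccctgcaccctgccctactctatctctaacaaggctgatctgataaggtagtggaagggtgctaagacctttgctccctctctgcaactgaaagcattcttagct
Ass1, chr2:31470020-31470319, plus strand: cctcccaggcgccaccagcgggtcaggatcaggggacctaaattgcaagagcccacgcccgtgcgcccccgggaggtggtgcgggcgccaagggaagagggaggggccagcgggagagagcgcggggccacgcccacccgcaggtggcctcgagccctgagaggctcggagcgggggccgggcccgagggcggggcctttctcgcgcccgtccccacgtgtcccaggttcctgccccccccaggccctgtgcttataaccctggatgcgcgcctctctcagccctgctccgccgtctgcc
Oat, chr7:132576349-132576648, minus strand: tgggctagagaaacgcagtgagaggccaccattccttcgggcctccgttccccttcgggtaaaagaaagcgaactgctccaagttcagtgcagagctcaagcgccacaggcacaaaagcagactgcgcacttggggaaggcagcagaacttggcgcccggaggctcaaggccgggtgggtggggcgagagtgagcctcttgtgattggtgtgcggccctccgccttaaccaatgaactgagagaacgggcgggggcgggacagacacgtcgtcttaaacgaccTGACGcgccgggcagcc
Slc1a2, chr2:102706188-102706487, plus strand: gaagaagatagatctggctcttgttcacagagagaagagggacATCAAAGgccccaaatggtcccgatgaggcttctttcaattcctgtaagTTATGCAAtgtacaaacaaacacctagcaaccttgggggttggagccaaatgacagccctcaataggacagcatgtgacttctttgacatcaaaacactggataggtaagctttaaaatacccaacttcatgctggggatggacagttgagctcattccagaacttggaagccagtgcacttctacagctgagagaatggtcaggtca
The Slc1a2 window held a TCF/LEF match at position -207 from the start site and a C/EBP match at position -158, the latter on the opposite strand. The Slc1a2 start used by RefSeq lies inside the annotated gene, which also has transcripts that begin upstream. The Oat window held a cAMP core at position 34 from the start site. The Otc, Ass1 and Glul windows held none of these letters. Over all 32851 promoters of this length, 3.73% held the TCF/LEF letters, 20.8% the cAMP core, 10.8% the C/EBP letters and 0.475% the HNF4A letters. GC content was 44.3% in the Otc window, 45.7% in that of Slc1a2, 61.7% in that of Oat, 64.3% in that of Glul and 74% in that of Ass1.

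Before the comparisons, 3 p16-3MR livers have to be set apart. Their TMM factors were 0.259 (GCV-treated female 33), 1.80 (GCV-treated male 32) and 1.64 (VEH-treated male 24), outside the range of 0.5 to 1.5 that held the other 9 livers. Mitochondrially encoded genes took 64.0% of the counts in liver 33 and 12.3% to 22.4% in the others. The summed level of 9 hepatocyte markers, such as Alb and Ttr, was 42514 CPM in liver 32 and 60153 CPM in liver 24, below the range of 101042 to 177095 CPM in the other 10 livers. The sum of 8 Kupffer cell markers, such as Clec4f and Vsig4, was 4491 CPM in liver 32 and 2379 CPM in liver 24, against 143 to 1288 CPM in the others. Hepatocyte, Kupffer, endothelial and stellate markers were above 0 in every liver of both tables, while Mzb1, Cd4, Cd8a, Trac, Cftr, Krt19, Krt7 and Slc4a1, which mark plasma cells, T cells, bile duct cells and red cell precursors, were at 0 in at least 1 p16-3MR liver. In wild-type livers mitochondrial genes took 3.20% to 4.53% of the counts, and no library stood apart in this way.

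The first steps of the urea cycle varied over a wide range within groups of p16-3MR livers. Cps1 (chr1:67123026-67231259, plus strand, GRCm38) stood at 2034, 1383 and 1406 CPM in VEH-treated females and at 683, 525 and 2311 CPM in GCV-treated females. Its levels were 779, 1404 and 1588 CPM in VEH-treated males and 1053, 314 and 1519 CPM in GCV-treated males. The groups overlapped, and the lowest 2 of the 12 values belonged to livers 32 and 33.
Otc (chrX:10252305-10321024, plus strand) was at 588, 309.6 and 479 CPM in VEH-treated females and at 299, 35.5 and 658 CPM in GCV-treated females. In males it was at 161, 486 and 438 CPM after VEH and at 282, 46.3 and 554 CPM after GCV. The value in liver 33 rested on 46 counts, and that in liver 32 on 475 counts. Both lay far below the remaining 10 values, which began at 161 CPM.
Ass1 (chr2:31470207-31520672, plus strand) stood at 1862, 699 and 1402 CPM in VEH-treated females and at 746, 220.1 and 2761 CPM in GCV-treated females. Males had 731, 1619 and 1431 CPM after VEH and 1010.5, 175 and 2241 CPM after GCV. Liver 35, a GCV-treated female, had the highest level of Cps1, Otc and Ass1 alike, and livers 32 and 33 had the lowest 2 levels of all 3.

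Asl (chr5:130011258-130029247, minus strand) ranged from 29.4 CPM in liver 32 to 321 CPM in liver 35, with a median of 171 CPM, and its groups overlapped. In liver 33, which was at the bottom for Otc, Asl stood at 281 CPM, the second highest of the 12 livers. Gls2 (chr10:128194457-128210004, plus strand), whose 3′ end overlaps the antisense gene Spryd4, ranged from 18.6 CPM in liver 32 to 440.3 CPM in liver 35, with a median of 184 CPM, with the same 2 livers at its ends as Asl.
Counts of Asl per count of Otc set these steps against each other within a library. This ratio was 7.91 in liver 33, from 364 and 46 counts, and it ran from 0.35 to 0.63 in the other 11 livers. It compares livers and says nothing of the relative amount of the transcripts.

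On the pericentral side, Glul (chr1:153899944-153909723, plus strand) was even in VEH-treated females, at 697, 615 and 605 CPM. GCV-treated females spread from 250.3 CPM in liver 33 over 427 CPM in liver 35 to 1484 CPM in liver 31, the highest value of all. VEH-treated males had 148, 693 and 692 CPM and GCV-treated males 206, 117 and 819 CPM, with livers 24, 30 and 32 low.
Oat (chr7:132557478-132576398, minus strand) was at 337, 217 and 190.2 CPM in VEH-treated females and at 66.9, 37.1 and 319 CPM in GCV-treated females. Males had 32.4, 124 and 202 CPM after VEH and 36.4, 23.2 and 313 CPM after GCV. Livers 24, 30, 32 and 33 were below 40 CPM, and liver 31, which led for Glul, came next with 66.9 CPM.
The count ratio of Glul to Oat was thus 22.2 in liver 31, against 1.34 to 6.75 in the other 11 livers.
Slc1a2 (chr2:102658659-102790784, plus strand) had the widest range. It was at 137, 171 and 83.3 CPM in VEH-treated females, at 86.9, 56.4 and 143 CPM in GCV-treated females, at 7.70, 80.9 and 108 CPM in VEH-treated males and at 13.1, 0.488 and 77.2 CPM in GCV-treated males. The lowest value was 5 counts in liver 32. Rhbg (chr3:88242874-88254709, minus strand, overlapped by Gm38392 on the same strand) was near the limit of detection, at 0 to 7.37 CPM from 0 to 55 counts. It had no count in livers 32 and 33, where the level that 3 counts would give before TMM scaling is 0.528 and 0.599 CPM.

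**Figure D1:**
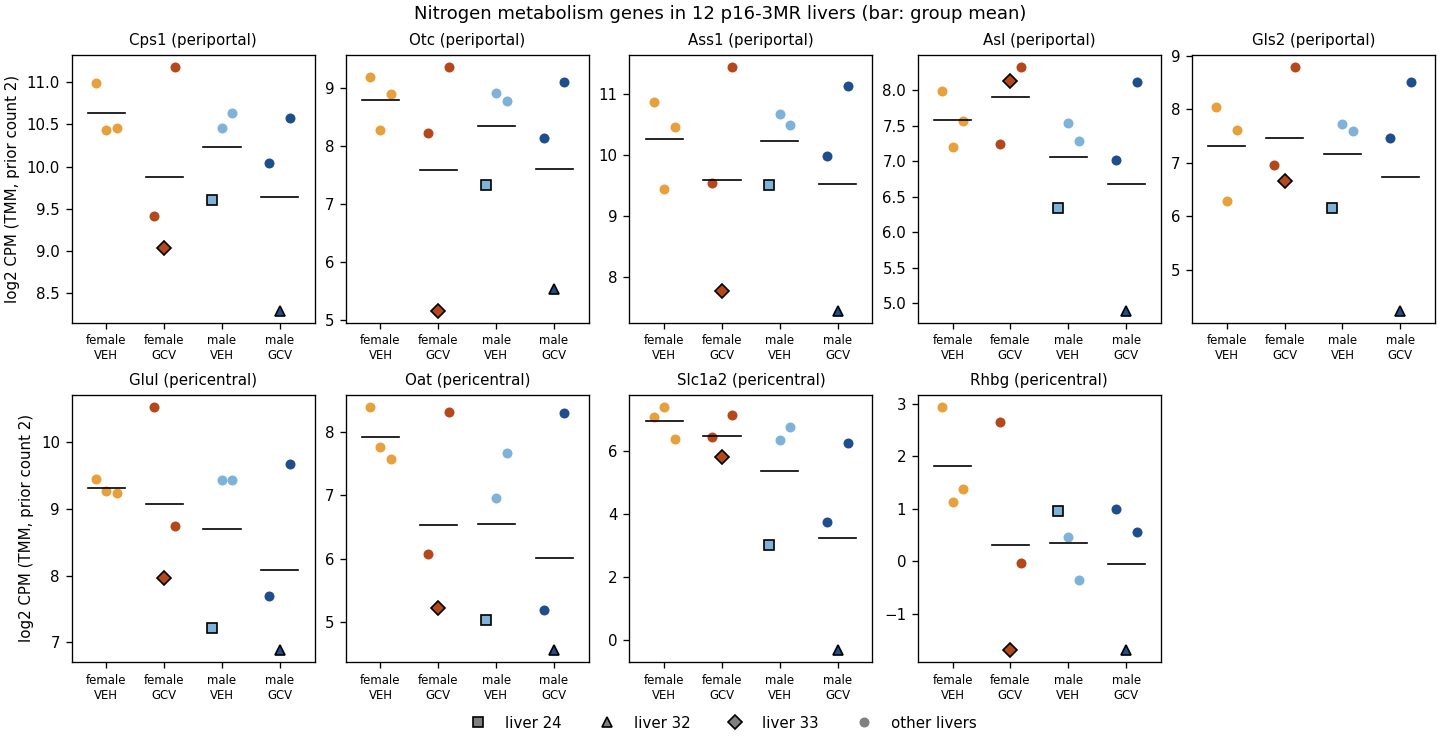
Levels of the 9 genes in the 12 p16-3MR livers, as log2 CPM with a prior count of 2, by sex and treatment, with 3 livers per group and a bar at the group mean. Livers 24, 32 and 33 have their own outlined markers: liver 32 is at or near the bottom of every panel, whereas liver 33 is low for Otc and Ass1 and high for Asl.

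The spread of these genes between p16-3MR livers of a group lay above the median gene. Their pooled within-group SD on the log2 scale ran from 0.88 for Cps1 to 2.00 for Slc1a2, where the median over the 12409 p16-3MR genes with a mean of at least 10 counts was 0.61 and the middle 50% of genes lay between 0.41 and 0.98. In the wild-type table the SD was 0.20 for Oat and 0.083 for Slc1a2, against a median of 0.25 over 8613 genes. The same Slc1a2 transcript that covered 7.75 log2 units over the p16-3MR livers covered 0.45 log2 units over the wild-type livers. Without liver 32, where it had 5 counts, it covered 4.42 log2 units over the p16-3MR livers.

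GCV was given to mice of both sexes to see whether females and males respond differently. In p16-3MR females none of these genes passed the test after GCV. The GCV and VEH groups overlapped for all 9 genes in females, where 5.91% of all genes were higher and 7.35% lower without overlap. Asl had the highest fold change, 0.36 on the log2 scale (SE 0.63, adjusted p = 0.91, edgeR quasi-likelihood test), with 251 ± 88.4 CPM after GCV against 196 ± 53.4 CPM after VEH (SD, n = 3). Oat had the lowest fold change, -0.81 (SE 0.97, adjusted p = 0.82), followed by Rhbg, and Cps1 was at -0.45 (SE 0.70) and Slc1a2 at -0.44 (SE 1.09). Glul was at 0.17 (SE 0.81). Single livers moved these values widely. With 1 liver left out Asl ran from 0.13 to 0.62, Glul from -0.91 without liver 31 to 0.52 without liver 33, Oat from -2.24 to -0.42, Cps1 from -1.41 to -0.16 and Slc1a2 from -0.86 to -0.24. The low ends of the last 3 were reached without liver 35 and the high ends without liver 33, while Asl was lowest without liver 28 and highest without liver 31.
Of the 9 genes, 3 had positive and 6 negative fold changes, and 0 had an adjusted or an unadjusted p under 0.05 with edgeR, and 0 had an adjusted p under 0.05 with DESeq2 or limma-voom. The median was -0.09 over the periportal genes and -0.54 over the pericentral genes, beside 0 over all 21755 genes tested. Over all genes 0% were called by edgeR (0 genes, with 1603, or 7.37%, at an unadjusted p under 0.05), while DESeq2 called 86 and limma-voom 7. Without livers 24, 32 and 33 together the fold change was -0.39 for Oat and -0.13 for Cps1, and 0 of the 9 were called.
Markers of several other cell types had mostly negative fold changes in the same comparison. All 8 Kupffer cell markers had negative fold changes (median -1.42), and they summed to 143 to 437 CPM after GCV and to 391 to 1136 CPM after VEH. So had 6 of 7 sinusoidal endothelial markers (median -1.01, 91.6 to 154 against 133 to 230.1 CPM), 6 of 7 T cell markers (median -2.45, 3.47 to 9.27 against 7.64 to 71.0 CPM) and 6 of 7 B and plasma cell markers (median -1.87, 30.9 to 164 against 88.1 to 175 CPM). The T cell sum of 71.0 CPM was that of liver 29, and the other VEH-treated females were at 7.64 and 7.81 CPM. At an unadjusted p under 0.05 in edgeR 1 Kupffer cell marker and 3 of each of the other lists were lower, among them Dnase1l3 of endothelial cells at -1.27 (SE 0.32) and Cd79a of B cells at -2.86 (SE 0.83), and 0 were called. Of 7 stellate cell markers 6 had negative fold changes (median -0.39), with 0 at an unadjusted p under 0.05 in edgeR. They summed to 272 to 353 CPM after GCV and to 378 to 451 CPM after VEH. Of 6 bile duct markers 5 had positive fold changes (median 1.00), with Sox9 at 2.10 (SE 0.62) and an unadjusted p under 0.05. Their sums overlapped, at 36.6 to 142 CPM after GCV and 34.7 to 98.0 CPM after VEH. Sox9 was at 6.21 to 37.1 CPM after GCV and at 2.55 to 7.05 CPM after VEH. The part of these markers in the fold changes after GCV was not tested.

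In p16-3MR males the values after GCV were as scattered, and markers of other cells mostly had positive fold changes there. These were 7 of 8 Kupffer cell, 6 of 7 T cell and 7 of 7 B and plasma cell markers, with 0 at an unadjusted p under 0.05 in edgeR, 6 of 6 bile duct markers (median 1.39, 2 at an unadjusted p under 0.05, among them Krt19 at 3.77, SE 1.43) and 5 of 7 stellate cell markers (median 0.32, 1 at an unadjusted p under 0.05, Col1a1 at 3.33, SE 1.09). The bile duct markers summed to 86.4 to 143 CPM after GCV and to 50.3 to 64.1 CPM after VEH. Krt19 ran from 0.195 to 16.9 CPM after GCV and from 0.156 to 0.714 CPM after VEH. Col1a1 ran from 7.68 to 356 CPM after GCV and from 3.75 to 24.7 CPM after VEH. The stellate cell markers summed to 1391 CPM in liver 32, against 388 CPM in liver 30 and 207 CPM in liver 34. Sinusoidal endothelial markers went the other way, with negative fold changes for 6 of 7 (median -0.25, 0 at an unadjusted p under 0.05 in edgeR). The part of these markers in the fold changes of the 9 genes was not tested. Slc1a2 was at -1.12 (SE 1.11), Glul at -0.42 (SE 0.81), Cps1 at -0.39 (SE 0.70) and Oat at 0.06 (SE 0.96), and for none of the 9 genes were the GCV and VEH groups apart, where 3.57% of all genes were higher and 2.83% lower without overlap. The Oat value became -2.002 without liver 34, which had 313 CPM, and -0.41 without liver 24. With 1 liver left out Slc1a2 ran from -3.28 without liver 34 to -0.55 without liver 26, and Glul from -1.66 without liver 34 to -0.023 without liver 32. Again 3 genes had positive and 6 negative fold changes, 0 of the 9 passed the adjusted or unadjusted threshold with edgeR, and 0 of all 21755 genes (0%) were called, with 416, or 1.91%, at an unadjusted p under 0.05, 5 calls by DESeq2 and 145 by limma-voom. The difference between the female and the male response ranged from -0.87 to 0.68 over the 9 genes, with standard errors of 0.90 to 1.67, and 0 of them passed either threshold. By that test 0% of all genes were called, with 822, or 3.78%, at an unadjusted p under 0.05 and 3 calls by DESeq2.

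**Figure D2:**
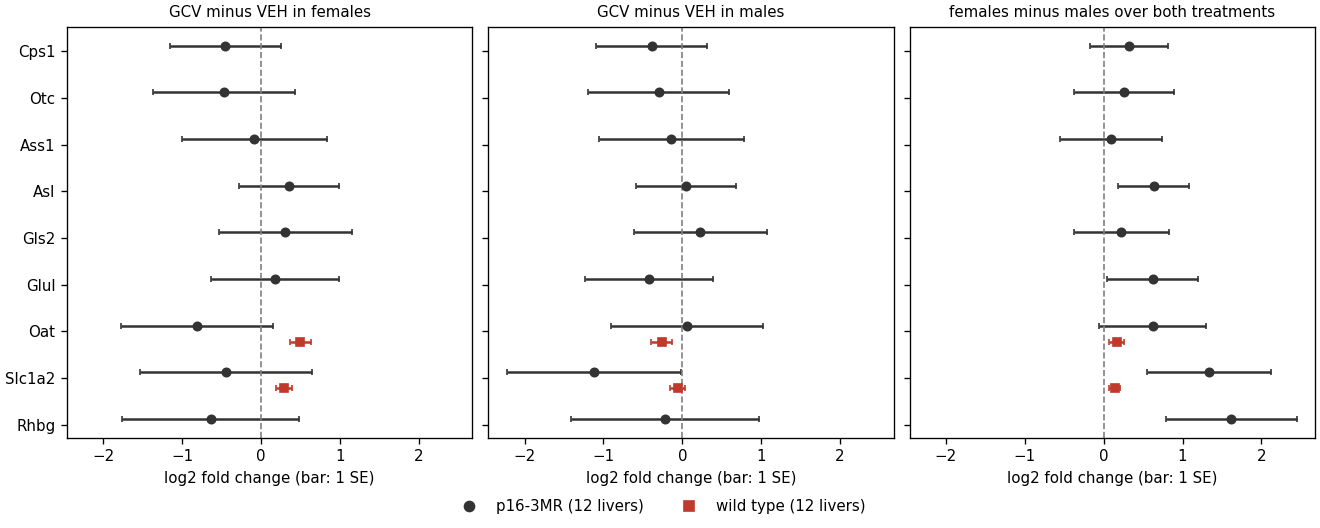
Log2 fold change with 1 SE from edgeR for GCV against VEH in females and in males and for females against males over both treatments. Circles are the 9 genes in p16-3MR livers and squares are Oat and Slc1a2 in wild-type livers. The standard errors in p16-3MR livers, 0.45 to 1.19 over these panels, are several times those in wild-type livers.

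Between the sexes of the p16-3MR mice, all 9 genes had the higher mean in females, and none passed the test. Rhbg was higher by 1.62 (SE 0.83, adjusted p = 0.69) and Slc1a2 by 1.33 (SE 0.78, adjusted p = 0.71) in edgeR's fit across all genes. Asl was higher by 0.63 (SE 0.45), Glul by 0.62 (SE 0.58), Oat by 0.62 (SE 0.68) and Cps1 by 0.32 (SE 0.50). The median was 0.26 over the periportal genes and 0.98 over the pericentral genes, beside -0.07 over all genes. Of all genes, 66 were called (0.303%), and 0 of the 9 members were called by edgeR, DESeq2 or limma-voom, and 0 had an unadjusted p under 0.05 in edgeR, as 7.05% of all genes had. The low livers 24 and 32 are both from males, and 6 of the 8 Kupffer cell markers were lower in females at an unadjusted p under 0.05. After VEH alone 0 Kupffer cell markers passed that threshold (median -0.42), and after GCV alone 7 did, all lower (median -3.01). Their sums were 391 to 1136 CPM in females and 201 to 2379 CPM in males after VEH. After GCV they were 143 to 437 CPM in females and 273 to 4491 CPM in males. Of the 9 hepatocyte markers 7 had the higher level in females (median 0.47), with 0 at an unadjusted p under 0.05 in edgeR. After VEH these markers summed to 113957 to 167762 CPM in females and to 60153 to 106176 CPM in males. After GCV the sums were 134983 to 177095 CPM in females and 42514 to 119638 CPM in males. The part of these livers and markers in the sex difference of the 9 genes was not tested. Without livers 24, 32 and 33 together Rhbg stood at 1.73, Slc1a2 at 0.91, Glul at 0.39, Oat at 0.38, Asl at 0.21 and Cps1 at 0.16. Without liver 35 alone Cps1 was at -0.16 and Oat at -0.10. With 1 liver left out Rhbg ran from 0.46 without liver 31 to 2.02 without liver 30, Slc1a2 from 1.03 without liver 32 to 2.42 without liver 34, Glul from 0.078 without liver 31 to 1.241 without liver 34, and Asl from 0.37 without liver 32 to 1.07 without liver 34.

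Periportal and pericentral genes were then set against each other within each p16-3MR liver. Each gene's log2 CPM was centred over the 12 livers, and an index was taken as the mean of the 5 periportal genes minus the mean of the 4 pericentral genes, so that a high index marks a liver with relatively more periportal transcript. VEH-treated females had an index of -0.65, -1.16 and -0.23, the group with the lowest mean, and GCV-treated females -1.24, -0.066 and 0.67. VEH-treated males had 0.65, 0.17 and -0.012 and GCV-treated males 1.03, 0.64 and 0.20. All 3 VEH-treated females lay below all 6 males, whereas GCV-treated females spread over the range of both sexes.
The group means were -0.68 ± 0.46 and -0.21 ± 0.97 in females after VEH and GCV, and 0.27 ± 0.34 and 0.62 ± 0.42 in males after VEH and GCV (SD, n = 3). GCV minus VEH was 0.47 in females and 0.35 in males, and females minus males over both treatments was -0.89, where the pooled SD within groups was 0.60. These differences are given with no test. Without livers 24, 32 and 33 together they were 0.40, 0.53 and -0.83, and without Rhbg, the gene with the fewest counts, 0.27, 0.53 and -1.01. With single livers left out the female difference ran from 0.027 without liver 35 to 0.98 without liver 31, with 0.23 without liver 28. The male difference ran from 0.15 without liver 30 to 0.57 without liver 34, with 0.21 without liver 26 and 0.54 without liver 24, and it was 0.0056 without Slc1a2 and Rhbg. Without those 2 genes the sex difference was -0.49. With each gene's values as z-scores the differences were 0.24 in females, 0.026 in males and -0.40 between the sexes, beside a pooled SD of 0.54.
The 2 means moved together over the livers more than the index did. In liver 32 the periportal mean was -2.42 and the pericentral mean -3.06, in liver 24 they were -0.72 and -1.37, and in liver 33 -1.15 and -1.09. The hepatocyte markers, centred in the same way, were at -1.40, -0.68 and -0.36 in these 3 livers. For liver 33 mean and sum disagreed, as the summed level of these markers there, 177095 CPM, was the highest of the 12 livers. Liver 30 was different, with a periportal mean of 0.019, a pericentral mean of -1.01 and hepatocyte markers at 0.24. Liver 31 showed the opposite, with a periportal mean of -0.23, a pericentral mean of 1.01 and hepatocyte markers at 0.75. Erythroid marker sums, the highest of which were 2348 CPM in liver 33 and 1630 CPM in liver 30, ran from 38.6 CPM in liver 31 upwards. Their part in the index was not tested.

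**Figure D3:**
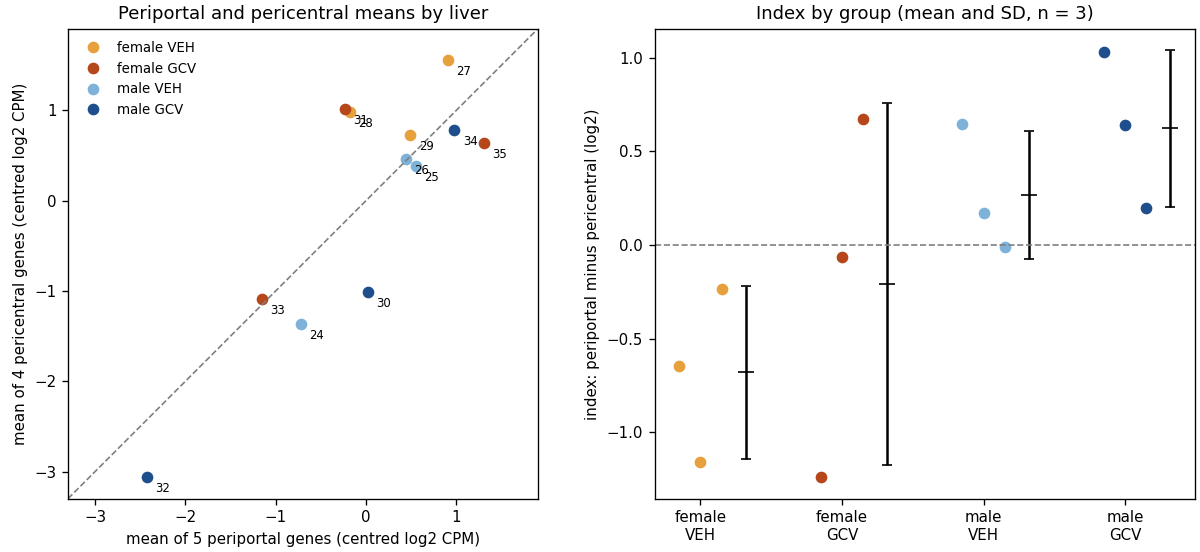
Left, the mean of the 5 periportal genes (x axis) against that of the 4 pericentral genes (y axis) in each p16-3MR liver, as log2 CPM centred per gene, with a dashed line of equality and the liver's number. Right, the difference of the 2 means by group with mean and SD of 3 livers: the VEH-treated females lie between -1.16 and -0.23, below all 6 males.

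How far the genes vary together was described by Pearson's r over the 12 p16-3MR livers, which share their library preparation and of which 3 stand apart as given above, and no p is given. The median r was 0.87 over the 10 periportal pairs, 0.66 over the 20 pairs that cross the zones and 0.65 over the 6 pericentral pairs. Otc and Ass1 were the closest pair with r = 0.96, Cps1 and Ass1 had 0.93 and Asl and Gls2 0.88. Across the zones Cps1 and Oat reached 0.89, above Glul and Oat with 0.71. After livers 24, 32 and 33 were left out the median was 0.85 over periportal pairs, 0.099 over pairs across the zones and 0.32 over pericentral pairs (9 livers). In the remaining livers Cps1, Otc, Ass1, Asl and Gls2 still varied together, with r from 0.63 to 0.96. Oat had an r of 0.81 with Cps1 and 0.27 with Glul over these 9 livers.
Among 12396 genes, those most like Cps1 over the 12 livers were Aldh6a1 (r = 0.98), Apol7a, Mut, Abat and Hdac11 (all 0.98). Aldh6a1, Mut and Abat encode mitochondrial enzymes of amino acid and propionate breakdown. Those most like Glul were Slc17a3 (0.95), Mgll (0.94), Leap2 (0.93), Ccdc162 (0.93) and Gramd1c (0.93). Slc1a2 ranked 276 and Oat 1027 in likeness to Glul, and Cps1 ranked 2303. These ranks moved with the measure. By Spearman's rho Slc1a2 ranked 2113 and Oat 1467, with the group means removed they ranked 1051 and 2047, and without liver 33 they ranked 281 and 1757. Of the 5 genes nearest Glul, Slc17a3 and Leap2 were also among the nearest 5 by Spearman's rho, Ccdc162 alone with the group means removed, and Slc17a3 and Leap2 without liver 33. Of the 5 nearest Cps1, only Abat was among the nearest 5 by Spearman's rho, only Hdac11 with the group means removed and only Mut without liver 33. In likeness to Cps1, Ass1 ranked 115, Otc 197 and Oat 300. With the group means removed these ranks were 72, 364 and 505, and without liver 33 they were 175, 110 and 526. Otc was most like Echs1 (r = 1.00), which encodes a mitochondrial enzyme of fatty acid oxidation, and Oat most like Slc25a48 (0.98). Slc25a48 was also nearest to Oat with the group means removed and without liver 33. By Spearman's rho Sec16b was nearest to Oat (0.99), and Slc25a48 was not among the nearest 5. The likeness to Otc and Oat was looked up after the values of these 2 genes had been seen.

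**Figure D4:**
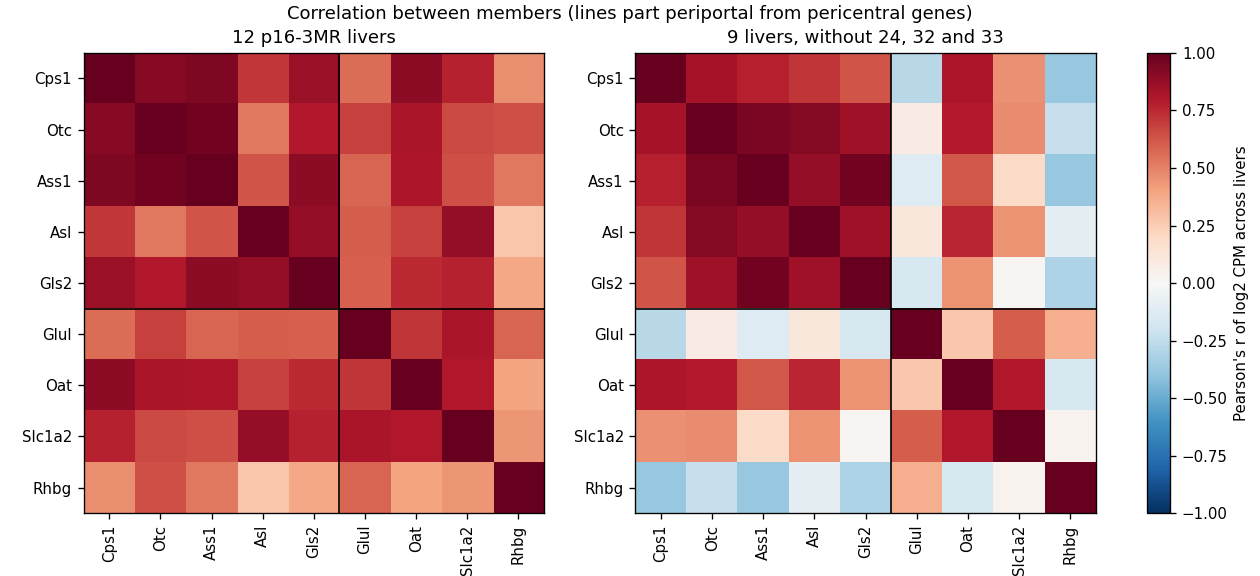
Pearson's r of log2 CPM between the 9 genes over all 12 p16-3MR livers (left) and over the 9 livers without 24, 32 and 33 (right), with lines between periportal and pericentral genes. Over 9 livers the block of Cps1, Otc, Ass1, Asl and Gls2 stays high and Oat has an r of 0.45 to 0.81 with it, whereas pairs across the zones have a median of 0.099.

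In wild-type livers, which lack the transgene, Oat and Slc1a2 were both higher after GCV in females. Oat was at 521, 516 and 631 CPM in GCV-treated females and at 311, 479 and 394 CPM in VEH-treated females, and the groups did not overlap. In males it was at 402, 363 and 378 CPM after GCV and at 399, 480.0 and 491 CPM after VEH, so that all but 1 VEH-treated male lay above the GCV-treated males. The female difference was 0.50 on the log2 scale (SE 0.13, adjusted p = 0.42, edgeR quasi-likelihood test), and it did not pass the adjusted threshold. The male difference was -0.26 (SE 0.13, adjusted p = 0.89). The female response minus the male response was 0.76 (SE 0.19, adjusted p = 0.63 in edgeR).
Slc1a2 was at 208, 211 and 197 CPM in GCV-treated females and at 182, 168 and 155 CPM in VEH-treated females, again without overlap. Males were at 175, 162 and 159 CPM after GCV and at 183, 165 and 169.9 CPM after VEH. The difference was 0.29 in females (SE 0.10, adjusted p = 1 in edgeR) and -0.06 in males (SE 0.10), and the female response minus the male response was 0.35 (SE 0.14, adjusted p = 0.98). By the test of that difference 1 of all genes was called (0.00791%, with 4.45% at an unadjusted p under 0.05, among them both members). Groups without overlap were found in females for 5.05% of all wild-type genes with the higher levels after GCV and for 4.95% with the lower, and in males for 4.48% and 4.37%. In the female comparison 1 of 12643 genes (0.00791%) was called, a gene that is not a member, and 4.56% had an unadjusted p under 0.05. In males 0 genes (0%) were called, with 640, or 5.06%, at an unadjusted p under 0.05 and 1 call by DESeq2.
Both members, 2 of 2, were higher in females at an unadjusted p under 0.05, as 2.25% of all genes were. Oat passed the adjusted threshold when only the 6 female livers were fitted (0.49, adjusted p = 0.049 in edgeR), and its adjusted p was 0.22 with limma-voom and 0.095 with DESeq2. No leave-one-out fit called it, with adjusted p from 0.059 to 1.

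**Figure D5:**
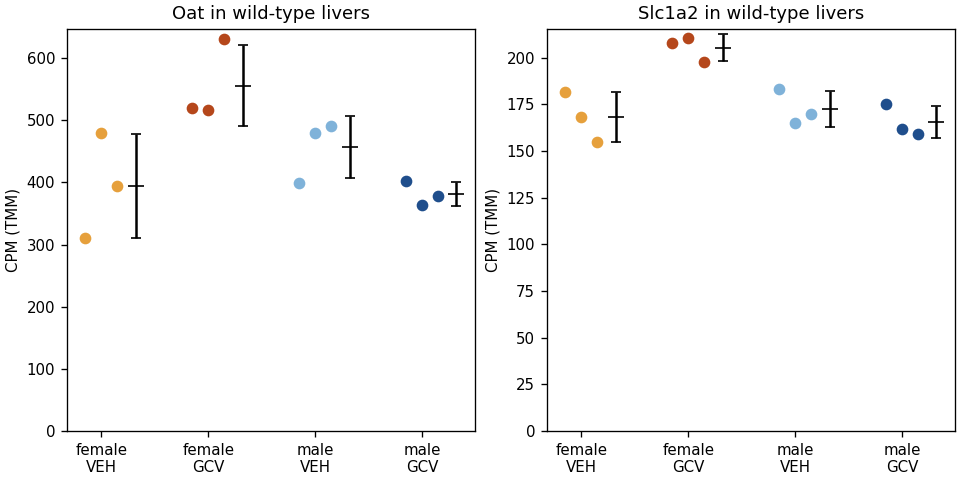
Levels of Oat and Slc1a2 in the 12 wild-type livers as CPM after TMM scaling, on axes from 0, by sex and treatment, with mean and SD of 3 livers. For both genes the 3 GCV-treated females lie above the 3 VEH-treated females.

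The sex difference of Oat in wild-type livers was given for each treatment too. Over both treatments females were higher by 0.17 (SE 0.094, adjusted p = 0.35, edgeR), and by 0.085 to 0.24 with 1 liver left out. In VEH-treated livers alone the difference was -0.21 (adjusted p = 0.50), and in GCV-treated livers alone it was 0.54 (SE 0.13, adjusted p = 0.022), which passed the test, as 3.24% of all genes did there. These contrasts share livers with those of the GCV response, and the difference between the last 2 is the interaction given above, which did not pass. Slc1a2 was higher in females by 0.14 over both treatments (SE 0.071, adjusted p = 0.29), at -0.04 in VEH-treated and at 0.31 in GCV-treated livers (adjusted p = 0.11). Of all wild-type genes 1004 were called between the sexes over both treatments (7.94%), and 20.1% had an unadjusted p under 0.05. Neither member was among either. The 3 hepatocyte markers that could be read, Serpinc1, Trf and Ttr, summed to 21991 to 24410 CPM over the 12 wild-type livers, and the 5 Kupffer cell markers to 165 to 313 CPM. The 4 erythroid markers summed to 768 to 3766 CPM. After GCV 3 of these 4 were higher in females and 3 in males at an unadjusted p under 0.05, and between the sexes Alas2, of haem synthesis, and the haemoglobin gene Hba-a2 were called, lower in females by -2.74 and -0.68 (adjusted p = 9.7e-15 and 0.018, edgeR). Of the hepatocyte markers Trf was called between the sexes, higher in females by 0.20 (adjusted p = 0.045, edgeR). The stellate cell markers Lrat and Dcn were called higher by 0.48 and 0.29 (adjusted p = 0.011 and 0.024, edgeR). Of the T cell markers 1 was called higher, and 3 of the 5 Kupffer cell markers were higher at an unadjusted p under 0.05 in edgeR. The part of all these markers in the values of Oat and Slc1a2 was not tested. Oat and Slc1a2 were both lower after GCV in p16-3MR females, by less than 1 SE, and higher in wild-type females, and the tables were not tested against each other.

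In wild-type livers 18 of 29 other genes of ammonia, ornithine and glutamine handling could be read. Between the sexes 3 of these 18 passed the test, where 7.94% of all genes did, with Slc7a2, a carrier of arginine and ornithine, higher in females by 0.45 (SE 0.11, adjusted p = 0.015), Car5a, the carbonic anhydrase that feeds Cps1, higher by 0.33 (adjusted p = 0.047) and Slc38a2, a glutamine carrier, lower by -0.49 (adjusted p = 0.00465, edgeR). The Car5a call was lost when any of 8 livers was left out (females 5 and 6 of each treatment, males 1 and 2 after GCV, males 2 and 3 after VEH), with adjusted p from 0.056 to 0.14 in edgeR. It was lost too with DESeq2's size factors in edgeR (adjusted p = 0.058) and after filterByExpr (adjusted p = 0.055). The median of the list was 0.13. After GCV in wild-type females no gene of the list was called, with 4 higher and 1 lower at an unadjusted p under 0.05 in edgeR, where 4.56% of all genes were in either direction. Slc25a15, which carries ornithine into mitochondria for Otc, was at 171 ± 10.4 against 137 ± 7.80 CPM (SD, n = 3), a difference of 0.32 (SE 0.11), and Slc7a2 differed by 0.37 (SE 0.16), and by 0.17 without VEH-treated female 6. In p16-3MR livers 26 of the 29 were present and 0 were called in the GCV contrasts or between the sexes by edgeR. After GCV in p16-3MR females 2 of the 26 were higher and 0 lower at an unadjusted p under 0.05 in edgeR, where 7.37% of all genes were in either direction. Of these 2, Slc38a2 was at 104 ± 65.5 CPM after GCV and 40.6 ± 4.54 CPM after VEH (SD, n = 3), a difference of 1.35 (SE 0.40, adjusted p = 0.65), and Sirt5, which deacylates Cps1, differed by 1.17 (SE 0.49). Without liver 33 these differences were 0.65 and 0.47. Between the sexes 2 of the 26 were higher and 1 lower in females at an unadjusted p under 0.05, where 7.05% of all genes were in either direction. Among them Got1, the cytosolic aspartate aminotransferase, differed by 1.00 (SE 0.35, adjusted p = 0.63) and Asns, which makes asparagine, by -2.10 (SE 0.84). Asns was at 0.126 to 0.723 CPM in VEH-treated females, at 0 to 2.12 CPM in GCV-treated females and at 0.714 to 6.34 CPM in males, where 3 counts give 0.419 to 0.599 CPM before TMM scaling, and the fitted value moved to -4.84 without liver 31.

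Amino acid breakdown is the source of the ammonia. Of 33 of its enzymes 19 could be read in wild-type livers, and between the sexes 5 were called higher and 1 lower in females and 13 were not called, where 7.94% of all genes were called. The median was 0.07, beside 0.03 over all genes. Agxt, which transaminates glyoxylate, was higher by 0.77 (SE 0.08, adjusted p = 3.6e-07) and Mat1a, which makes S-adenosylmethionine, by 0.68 (SE 0.07). Amdhd1 and Hal, both of histidine breakdown, were higher by 0.51 and 0.60, and Kynu, of the kynurenine pathway, was lower by -0.38. After GCV in wild-type females Tat, the tyrosine aminotransferase, stood at 428 ± 19.2 against 255 ± 33.3 CPM (SD, n = 3), a difference of 0.75 (SE 0.17, adjusted p = 0.25, edgeR) that DESeq2 called (adjusted p = 0.022) and that passed in edgeR without GCV-treated male 2, and 0 of the 19 were called by edgeR. In p16-3MR livers 0 of 33 were called in any of these contrasts by edgeR, and Csad, of taurine synthesis, differed by -1.20 between the sexes (SE 0.48, adjusted p = 0.69), and by -1.73 without livers 24, 32 and 33 together (adjusted p = 0.00091), and limma-voom called it.

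Other zonated genes give the background of the lobule. Of 18 further periportal genes 11 could be read in wild-type livers, and between the sexes 3 were called higher and 5 lower in females, where 7.94% of all genes were called. Hsd17b6, a hydroxysteroid dehydrogenase, was higher by 2.04 (SE 0.22) and Mfsd2a by 1.48 (SE 0.22), and Hal belongs to this list too. Mup20, a major urinary protein from a family of near-identical genes, was lower by -6.94 (SE 0.11), Serpina1c, also of a gene family, by -0.72, and Cyp2f2 by -0.75. Of 20 further pericentral genes 14 could be read, and 2 were called higher and 2 lower in females. Cyp2a5 was higher by 0.77 (SE 0.12) and Sult5a1 by 0.82 (SE 0.22), and Aldh1a1 and Ldhd were lower by -0.55 and -0.60. The Sult5a1 call was lost without VEH-treated female 6 or VEH-treated male 2 or 3 (adjusted p from 0.053 to 0.079, edgeR). The medians were -0.35 for the periportal and 0.13 for the pericentral list.
After GCV in wild-type females 5 of these 14 pericentral genes were higher at an unadjusted p under 0.05, as 2.25% of all genes were, and 0 were called by edgeR, with a median of 0.29. Aldh1a1 was at 584 ± 13.4 against 404 ± 82.1 CPM (SD, n = 3), a difference of 0.53 (SE 0.13, adjusted p = 0.32 in edgeR, 0.025 there without VEH-treated female 5, and 0.038 in DESeq2), and Cyp2c29 differed by 0.33 (SE 0.13). Among the periportal genes G6pc, the glucose-6-phosphatase, was at 214 ± 25.3 against 104 ± 43.0 CPM (SD, n = 3), a difference of 1.04 (SE 0.21, adjusted p = 0.20), and Etnppl differed by 0.47 (SE 0.15), and by 0.30 without GCV-treated female 6. The G6pc difference passed the test without VEH-treated female 4, at 1.40, and without GCV-treated male 2 or VEH-treated male 1. With the 6 female livers fitted alone G6pc, Aldh1a1 and Tat all passed in edgeR (adjusted p = 0.0010, 0.017 and 6.5e-05). In wild-type males Cyp7a1, which begins bile acid synthesis, differed by 0.67 (SE 0.31, and by 0.36 without GCV-treated male 3), Slc25a22, a glutamate carrier, by -0.32 (SE 0.14) and the regulator Tcf7l2 by 0.48 (SE 0.19), and none of the 3 was called by edgeR.
In p16-3MR females Apoa4, an apolipoprotein, was at 1468 ± 657 CPM after GCV and 344 ± 58.2 CPM after VEH (SD, n = 3), a difference of 2.09 (SE 0.51, adjusted p = 0.65, edgeR), and Cdh1 differed by 1.56 (SE 0.72), and by 0.57 without liver 31. In p16-3MR males Mup20 differed by -2.85 (SE 1.05), and by -4.73 without liver 34. None of these was called by edgeR, while DESeq2 called Apoa4 (2.14, adjusted p = 0.00024) and limma-voom called Mup20 (-4.06, adjusted p = 0.015).
In p16-3MR livers all 20 further pericentral genes were present. Between the sexes 6 of them were higher in females at an unadjusted p under 0.05, as 2.61% of all genes were, and 0 were called by edgeR, with a median of 0.55. Ahr was higher by 0.87 (SE 0.20, adjusted p = 0.18, edgeR) and Slc16a10, an aromatic amino acid carrier, by 1.11 (SE 0.30, adjusted p = 0.35), and DESeq2 and limma-voom called both. Of the 18 periportal genes Mup20 was called, lower in females by -8.32 (SE 0.96, adjusted p = 7.3e-04).

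Of 24 regulators of zonation and nitrogen metabolism, Cux2, a transcription factor known for its female-biased expression in mouse liver, was called higher in females in both tables, where 0.303% of all p16-3MR genes and 7.94% of all wild-type genes were called. The difference was 4.95 in p16-3MR livers (SE 0.79, adjusted p = 0.011) and 5.43 in wild-type livers (SE 0.49, adjusted p = 6.2e-08, edgeR). In p16-3MR livers Cux2 was at 23.7 to 154 CPM in females and 0 to 10.99 CPM in males, so that the fitted value rests on males at or near 0, and it was 7.45 without liver 24. Wild-type males were at 0 to 1.53 CPM, where 3 counts give 0.529 to 0.973 CPM over the wild-type livers before TMM scaling. The fitted value of 5.43 thus rests on males at or near 0 too. In VEH-treated or GCV-treated p16-3MR livers alone Cux2 was not called (adjusted p = 0.17 and 0.38). In wild-type livers, where 14 of the 24 could be read, 3 were called higher and 1 lower, with Ppargc1a higher by 0.61, Foxa2 by 0.47 and the glucagon receptor Gcgr lower by -0.32. The Foxa2 call was lost without VEH-treated female 4 or VEH-treated male 2 or 3, and the Gcgr call without GCV-treated female 4 (adjusted p from 0.051 to 0.059, edgeR). Of 14 genes listed for Wnt and beta-catenin signalling, 10 were readable there and 2 were called, with Ccnd1 higher in females by 2.21 (SE 0.11) and Zbtb20 lower by -0.44 (SE 0.09). In p16-3MR livers 0 of these 14 genes were called by edgeR between the sexes, with 4 higher and 2 lower in females at an unadjusted p under 0.05, where 7.05% of all genes were in either direction, among them Ccnd1 at 1.62 (SE 0.58) and Axin2 at 1.095 (SE 0.41). Limma-voom called Axin2, at 1.73 (adjusted p = 0.0068), and in edgeR it was at 1.68 without liver 34 and Ccnd1 at 1.06 without liver 35. Without livers 24, 32 and 33 together Ccnd1 was called, at 2.33 (adjusted p = 0.012). After GCV in p16-3MR males Axin2 differed by -1.64 (SE 0.60) and Tbx3 by -1.77 (SE 0.79), neither called by edgeR. Limma-voom called Axin2 there too (-2.49, adjusted p = 0.018). With 1 liver left out Axin2 reached -2.81 without liver 34, and Tbx3 ran from -2.71 without liver 34 to -0.57 without liver 26. Axin2 was at 0.705 to 3.84 CPM in GCV-treated males, where 3 counts give 0.419 to 0.599 CPM before TMM scaling. In p16-3MR females Axin2 was lower after GCV too, at 3.86 to 6.55 CPM against 8.18 to 8.97 CPM after VEH. Those groups did not overlap, as for 7.35% of all genes in that direction, and the unadjusted p in edgeR was not under 0.05. Within 1 treatment, in p16-3MR livers, Onecut2 differed between the sexes by 1.99 after GCV (SE 0.52, adjusted p = 0.53, edgeR) and Bcl6 by -1.46 after VEH (SE 0.67, adjusted p = 1). Cebpb, a C/EBP factor that responds to inflammation and fasting, differed after GCV by 1.27 in p16-3MR females (SE 0.42) and by 1.04 in males (SE 0.42), and Stat5b, which carries the growth hormone signal, by -0.86 (SE 0.31) and -0.76 (SE 0.31), with no call by edgeR. After GCV in wild-type females Ccnd1 was at 155 ± 15.6 against 244 ± 40.2 CPM (SD, n = 3), a difference of -0.66 (SE 0.15, adjusted p = 0.25 in edgeR, 0.039 there without VEH-treated female 5 and 0.0028 with the 6 female livers alone, and 0.022 in DESeq2). Klf15, a driver of amino acid breakdown genes, differed by 0.50 (SE 0.17) and Ppargc1a by 0.46 (SE 0.19), and 0 regulators were called by edgeR in the GCV contrasts of either table.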

How the data were processed

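Gene-level values of 24 libraries were taken from 2 deposited tables, and the groups from the sample labels. According to the methods and processing notes, the authors trimmed reads with Trim Galore 0.6.10 after FastQC 0.11.9, quantified them with Salmon 1.10.3 (build mm10) and summed them to genes with tximport. The values the authors deposited are expected counts (estimated counts rounded to whole numbers), unscaled, with genes under 3 reads removed. The authors tested them with DESeq2. Symbols and coordinates are from GENCODE M21 (GRCm38), which named 21698 of 21755 p16-3MR IDs. Wild-type labels lack 9 lower-case letters, and 10496 matched 1 symbol.

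Each table was fitted with edgeR 4.0.16 (TMM, quasi-likelihood test, 1 mean per group over 12 livers, no further filter), with Benjamini-Hochberg adjustment over all genes and calls at an adjusted p under 0.05. Log2 CPM used a prior count of 2. SE are on the log2 scale. The fit was also run on simulated counts, with changes planted in GCV-treated females. No simulated liver differed in composition as livers 24, 32 and 33 do, so that run cannot show how such livers affect the fit. Alternatives were DESeq2 1.42.0, its size factors, filterByExpr, limma-voom 3.58.1 with quality weights, single-sex fits, removal of mitochondrial genes, each liver left out in turn, and livers 24, 32 and 33 left out together, which was added after the data were seen, as was the index without Rhbg. Nothing in the sources shows that the 3 libraries of a group came from separate cages or days, so p-values measure the spread between these mice. Depth limits are counting error only.

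A further gene is not reported here and was left out of the index, the counts and the figures. The members and lists were chosen with earlier results of these data known. Named are all members, and of each list and contrast up to 3 genes a direction with the smallest p among those called, or up to 2 with the smallest unadjusted p under 0.05 if none was, leaving out genes whose counts averaged under 10, and the 5 genes most like Glul and Cps1. Marker lists and single-treatment sex contrasts are given mostly by counts, and not every gene that this rule gives for them is named. The index and the likeness to Glul and Cps1 were not run on wild-type livers, where these genes share labels. All 24 columns were used, and 0 rows named no gene.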

Additional observations from a re-analysis of the deposited data

How the results depend on the processing

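No member was called in any p16-3MR contrast under any alternative run, and in wild-type livers Oat alone was called in some. These were the 6 female livers fitted alone (1 member called), GCV-treated livers alone in the sex contrast (1 member called), and the replicate block on the numbers that wild-type livers of a sex share (1 member called in females, Oat at 0.51 with adjusted p = 0.0010, and 1 in the interaction, at 0.77 with adjusted p = 0.000298). The numbers do not show that livers were paired: same-numbered livers correlated at -0.045, -0.057 and 0.0018 in females and 0.20, 0.28 and -0.066 in males. With that block 106 genes were called in females, 68 in males and 79 in the interaction. Counts over all genes moved more. For GCV in p16-3MR females (0 genes) DESeq2 gave 86, limma-voom 7, females alone 3 and the fit without livers 24, 32 and 33 together 4; in p16-3MR males (0) they gave 5, 145 and, without the 3 livers, 5; in the interaction (0) 3, 1 and 2; and between the sexes (66) 200, 215 and 178, with 26 in VEH-treated and 21 in GCV-treated livers alone. For GCV in wild-type females (1) DESeq2 gave 17, filterByExpr 0, limma-voom 3 and females alone 44; DESeq2 gave 1 in males, filterByExpr 0 in the interaction, and the sex contrast (1004) had 483 in VEH-treated and 410 in GCV-treated livers alone. Leaving out 1 liver gave 0 to 1 calls in p16-3MR females and in males, 0 to 12 in wild-type females, 0 to 46 in wild-type males and 0 to 17 in their interaction. It moved Glul in p16-3MR females between -0.91 and 0.52, Cps1 in males between -0.88 and 0.0049, Oat in males between -2.002 and 0.67 (-1.60 with limma-voom), and between the sexes Cps1 between -0.16 and 0.57 and Oat between -0.10 and 1.65. VEH-treated wild-type livers alone gave -0.21 for Oat and -0.037 for Slc1a2 between the sexes. The index differences kept their signs under every alternative run, and with single livers left out the sex difference ran from -1.11 to -0.63. The causes were not tested. Low counts limit Rhbg, Asns and the value of Slc1a2 in liver 32.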
